A study of Homo sapiens with 27 samples.

Results

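The E2F factors and the G1 cyclins were followed in 3 human cancer cell lines as 10 genes: the transcription factors E2F1, E2F2, E2F3, E2F7 and E2F8, the E-type cyclins CCNE1 and CCNE2, and the D-type cyclins CCND1, CCND2 and CCND3. Every probe set annotated to one of these genes alone was taken, which gave 22 of the 54675 probe sets, for 10 of 19775 genes, on the Human Genome U133 Plus 2.0 array. PC-3 cells come from a prostate cancer, SK-OV-3 cells from an ovarian cancer and WM793B cells from a melanoma, and each line is a single established line standing for its cancer. Cultures of all lines were kept for 72 h. Under cycling hypoxia, periods of 4 h or 12 h at 1% oxygen interchanged with 21% oxygen. By the study's scheme, this schedule ended with 4 h of reoxygenation at 21% oxygen. Effects of the cycles and of this last reoxygenation cannot be told apart. Chronic hypoxia was a constant 1% oxygen, and control cells stayed at 21% oxygen. Each of the 9 groups had 3 arrays, labelled as biological replicates, and no drug or genetic change was applied to any of them.

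E2F factors bind the promoters of genes needed for DNA synthesis. E2F1, E2F2 and E2F3 are the activators of the family, held in check by the retinoblastoma protein, whereas E2F7 and E2F8 bind DNA without a DP partner and repress the same kind of genes. D-type cyclins carry growth signals: with the kinases CDK4 and CDK6 they phosphorylate the retinoblastoma protein and free the activators. E-type cyclins, themselves encoded by E2F target genes, then drive CDK2 at the entry into S phase. RNA was taken from whole cultures, so that fewer cells expressing a gene and less RNA per cell cannot be told apart.

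E2F genes are known to be read out by E2F factors themselves, and their promoters are shown for that reason, as they stand in RefSeq (GRCh38.p14), with the 250 bases before the start, 5′ to 3′ on the strand of the gene. Windows were at hand for 6 of the 10 genes, 9 windows in all. The shown windows lie at chr20:33686386-33686635 (minus strand) for E2F1, chr6:20401629-20401878 (plus strand) for E2F3, chr12:77065570-77065819 (minus strand) for E2F7 and chr19:29811741-29811990 (plus strand) for CCNE1. Capitals mark a match to the E2F motif, searched as TTTCCCGC, TTTGGCGC or TTTCGCGC on both strands.
E2F1: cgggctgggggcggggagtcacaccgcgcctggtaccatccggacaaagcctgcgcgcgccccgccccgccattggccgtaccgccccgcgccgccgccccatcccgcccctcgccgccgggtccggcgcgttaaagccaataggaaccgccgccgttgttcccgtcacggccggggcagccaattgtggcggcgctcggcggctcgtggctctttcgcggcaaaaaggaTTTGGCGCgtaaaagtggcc
E2F3: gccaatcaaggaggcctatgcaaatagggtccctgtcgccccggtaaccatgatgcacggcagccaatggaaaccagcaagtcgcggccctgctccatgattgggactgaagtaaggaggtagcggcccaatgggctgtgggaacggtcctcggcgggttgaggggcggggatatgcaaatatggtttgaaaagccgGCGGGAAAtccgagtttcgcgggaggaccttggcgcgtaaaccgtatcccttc
E2F7: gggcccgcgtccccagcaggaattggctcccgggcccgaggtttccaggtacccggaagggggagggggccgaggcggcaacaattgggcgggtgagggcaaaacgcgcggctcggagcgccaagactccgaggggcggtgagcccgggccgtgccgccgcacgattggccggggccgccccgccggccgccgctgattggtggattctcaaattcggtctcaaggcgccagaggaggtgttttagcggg
CCNE1: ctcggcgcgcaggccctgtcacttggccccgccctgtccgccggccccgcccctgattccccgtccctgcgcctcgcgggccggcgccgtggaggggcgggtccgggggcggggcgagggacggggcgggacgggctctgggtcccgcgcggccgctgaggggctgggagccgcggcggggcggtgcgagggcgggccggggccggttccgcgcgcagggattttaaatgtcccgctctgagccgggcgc
The E2F1 window held TTTGGCGC at 20 to 13 bases before the start, and the E2F3 window held TTTCCCGC on the opposite strand at 53 to 46 bases before it. E2F2, not shown, held TTTGGCGC at 42 to 35 bases before its start. Windows of E2F7 and CCNE1 held none of these 3 motifs. Of all 35116 promoter windows of this length, 2.32% held at least 1 of them. The core of the hypoxia response element, ACGTG or GCGTG on either strand, occurred in 43.2% of all windows and in none of the 4 shown; a second window of E2F3 and 1 of the 3 windows of CCND3 held it. CCAAT, a common promoter box present in 32% of all windows, was found 3 times in the E2F1 window, 4 times in the E2F3 window and 4 times in the E2F7 window. These matches overlapped no E2F motif.

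Levels are the deposited log2 GC-RMA values, and a gene was read by its probe set with the highest mean over the 27 arrays. Replicate arrays correlated at 0.994 to 0.998. Values up to 5 are treated here as noise. Keratins and EPCAM marked PC-3 and SK-OV-3 cells, ERBB2 was at 12.5 to 13.3 in SK-OV-3 cells, and the melanocyte lineage genes SOX10 and S100B were at 9.99 or above in WM793B cells and at 2.37 or below in the other lines. The pigment genes PMEL, MLANA and TYR were at 2.40 or below in WM793B cells, so their melanocytic label rests on SOX10 and S100B. MITF, a regulator of melanocytes, did not separate the lines as labelled: it was at 8.21 to 8.56 in WM793B, 9.15 to 9.60 in SK-OV-3 and 7.43 to 7.86 in PC-3 cells. Of 5 hypoxia targets tested, all rose under chronic hypoxia in every line; under cycling hypoxia 5 (PC-3), 4 (SK-OV-3) and 4 (WM793B) rose.

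In WM793B cells every called gene of the 10 fell, under cycling hypoxia every called gene of SK-OV-3 rose, and PC-3 cells had both directions. A difference was called at an adjusted p under 0.05 in limma's moderated test, fitted to each line and adjusted over the 19800 probe sets that passed the variation filter. E2F1, E2F2 and CCND2 did not pass and were not tested there. In WM793B cells under chronic hypoxia 6 of the 10 genes fell and none rose, where 21.5% of all probe sets were called lower and 18.2% higher. Under cycling hypoxia 4 fell and none rose in this line (background 8.36% lower and 8.79% higher), but 2 when any 1 array was left out or when no variation filter was used. In PC-3 cells 1 rose and 4 fell under chronic hypoxia (background 26.2% higher and 34.3% lower), and 1 rose and 3 fell under cycling hypoxia (22.9% higher and 22.3% lower). SK-OV-3 cells had 4 genes higher and 0 lower under cycling hypoxia (16.7% higher and 13.6% lower), and 2 higher and 2 lower under chronic hypoxia (21.6% higher and 22.3% lower).

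The direct comparison of the hypoxic conditions ran one way in all lines. Under cycling hypoxia 5 of the 10 genes were higher than under chronic hypoxia in PC-3 cells (background 25.1% higher), 3 genes for SK-OV-3 (16.4%) and 4 for WM793B (8.13%), and none was lower in any line (background 12.9%, 14.1% and 6.95% lower). With all 27 arrays in 1 fit, the count for PC-3 cells was 2. The median log2 difference over the 10 genes was 0.33 (PC-3), 0.18 (SK-OV-3) and 0.68 (WM793B). With values below 5 set to 5 these medians were 0.19, 0.18 and 0.44. Over all probe sets tested, the medians of the 9 comparisons lay between -0.03 and 0.06. Against control, the median of the 10 genes was -0.62 under cycling and -1.55 under chronic hypoxia in WM793B cells. The same medians were -0.07 and -0.41 for PC-3 and 0.40 and -0.02 for SK-OV-3. With values below 5 set to 5 they were -0.62 and -1.37 for WM793B, -0.05 and -0.41 for PC-3, and 0.14 and 0 for SK-OV-3.

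With a difference of at least 2-fold also required, fewer genes remained. WM793B cells had 0 genes higher and 2 lower under cycling hypoxia against control (background 1.42% higher and 1.85% lower), and 0 higher and 5 lower under chronic hypoxia (5.63% and 7.28%). PC-3 cells had 1 higher and 1 lower under cycling hypoxia (4.89% and 3.6%), and 1 higher and 2 lower under chronic hypoxia (9.67% and 12.8%). For SK-OV-3 the counts were 2 higher and 0 lower under cycling hypoxia (5.83% and 3.15%), and 1 higher and 0 lower under chronic hypoxia (9.57% and 6.16%). Between cycling and chronic hypoxia, 1 gene was higher in PC-3 cells (background 3.06% higher and 1.83% lower), 1 for SK-OV-3 (3.64% and 3.85%) and 2 for WM793B (1.15% and 1.85%), and 0 were lower. CCNE2 was 1 of the 2 in WM793B cells. Its chronic group there lay within noise, so that only a difference of at least 1.30-fold was measured.

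**Figure D1:**
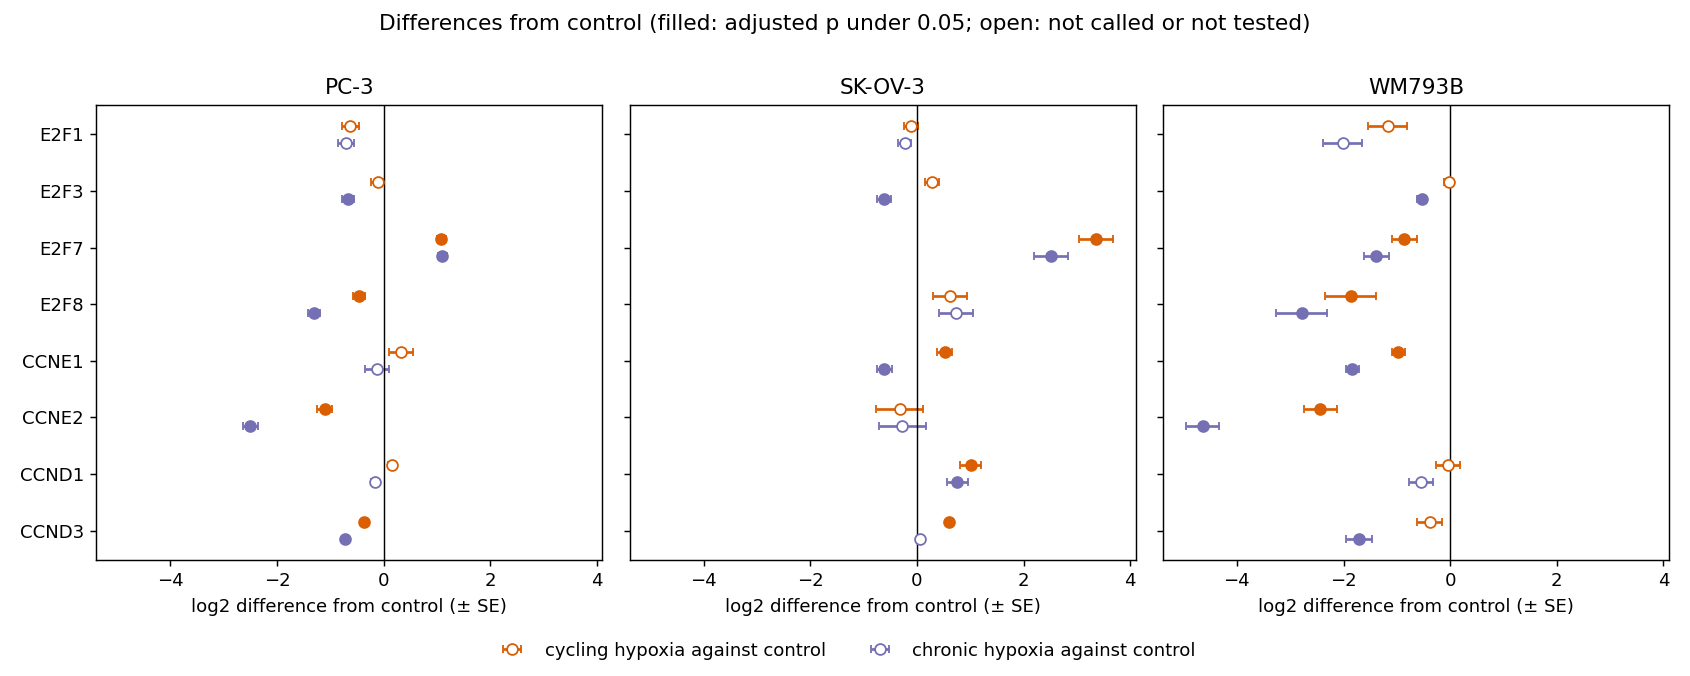
Log2 difference from control (x axis, points with SE, limma) of 8 genes in PC-3, SK-OV-3 and WM793B cells, under cycling hypoxia (orange) and chronic hypoxia (violet); filled points had an adjusted p under 0.05, and open points did not or were not tested. E2F7 lies to the right for PC-3 and SK-OV-3 and to the left for WM793B, and CCNE2 lies furthest to the left in WM793B cells under chronic hypoxia. Points are drawn at the measured differences, also where a group lay within noise, as for E2F1, E2F8, CCNE1 and CCNE2 in WM793B cells under chronic hypoxia.

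E2F1 and E2F3 were the activators read above noise; E2F3 fell under chronic hypoxia in all 3 lines, and E2F1 was lower in PC-3 and WM793B. E2F1, the best known activator of the family, was at 4.79, 3.48 and 4.70 in WM793B cells under chronic hypoxia. Cycling hypoxia gave 5.13, 5.13 and 5.24, and control cells 6.22, 6.65 and 6.16. No array of either hypoxic group reached the control arrays, and the chronic group lay wholly within noise. With noise set to 5, E2F1 was at least 2.54-fold lower under chronic hypoxia than in control WM793B cells (adjusted p = 0.0139 in the limma fit over all probe sets). The difference under cycling hypoxia, -1.17 (SE 0.36), had an adjusted p of 0.161 in this fit. In PC-3 cells E2F1 was at 5.52, 5.13 and 5.22 under cycling, at 5.16, 5.31 and 5.17 under chronic hypoxia and at 5.78, 5.75 and 6.21 in control cells. Both hypoxic groups lay below control, by -0.62 under cycling and -0.70 under chronic hypoxia (SE 0.16 each, adjusted p = 0.0389 and 0.0161 in the same limma fit). The cycling call in PC-3 cells was lost when 1 of 5 of the 6 arrays compared was left out, the highest adjusted p being 0.125 without cycling hypoxia replicate 2. The chronic call there was lost without chronic hypoxia replicate 1 (0.0555) or replicate 3 (0.0548), and that in WM793B cells without control replicate 2 (0.0542). SK-OV-3 cells kept E2F1 between 5.02 and 5.53 on all 9 arrays, and no difference was called. The identical value of 5.13368 stood on 4 of 27 arrays, from PC-3 and WM793B cells under cycling and SK-OV-3 cells under chronic hypoxia. E2F1 levels near this value, just above the noise level, are therefore uncertain.

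E2F3, the other activator, showed the same pattern in all 3 lines on the probe set read for it: lower under chronic hypoxia and close to control under cycling hypoxia. In PC-3 cells it was at 6.75, 6.68 and 6.75 under cycling, at 6.38, 5.93 and 6.20 under chronic hypoxia and at 6.96, 6.68 and 6.87 in control cells. SK-OV-3 cells had 7.70, 7.70 and 8.06 under cycling, 7.01, 7.05 and 6.71 under chronic hypoxia and 7.61, 7.56 and 7.44 in control cells. WM793B cells had 7.79, 7.83 and 7.99 under cycling, 7.50, 7.32 and 7.28 under chronic hypoxia and 7.99, 7.85 and 7.86 in control cells. The chronic arrays lay below all other arrays of their line in each of the 3 lines. Against control E2F3 differed by -0.67 (PC-3), -0.61 (SK-OV-3) and -0.53 (WM793B) under chronic hypoxia (log2; SE 0.12, 0.13 and 0.08; limma adjusted p = 0.00221, 0.00792 and 0.00268). Under cycling hypoxia no difference from control was called (-0.11, 0.28 and -0.03; adjusted p = 0.518, 0.154 and 0.874). Cycling exceeded chronic hypoxia by 0.56, 0.89 and 0.50 in the 3 lines (limma adjusted p = 0.0104, 0.00261 and 0.0112). A second E2F3 probe set did not pass the filter, and its differences under chronic hypoxia were -0.37, -0.21 and -0.42, of which that in PC-3 cells passed in the fit over all probe sets (limma adjusted p = 0.0243). In PC-3 cells this probe set also fell under cycling hypoxia, by 0.39 (limma adjusted p = 0.0292 over all probe sets). Between cycling and chronic hypoxia its differences were -0.02 (PC-3), 0.25 (SK-OV-3) and 0.18 (WM793B), and none passed in that fit. With the mean of both probe sets, the call of cycling over chronic hypoxia in WM793B cells was lost (limma adjusted p = 0.0574). E2F2 stayed at 3.33 or below on its 3 probe sets and all 27 arrays, and nothing can be said of its direction.

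**Figure D2:**
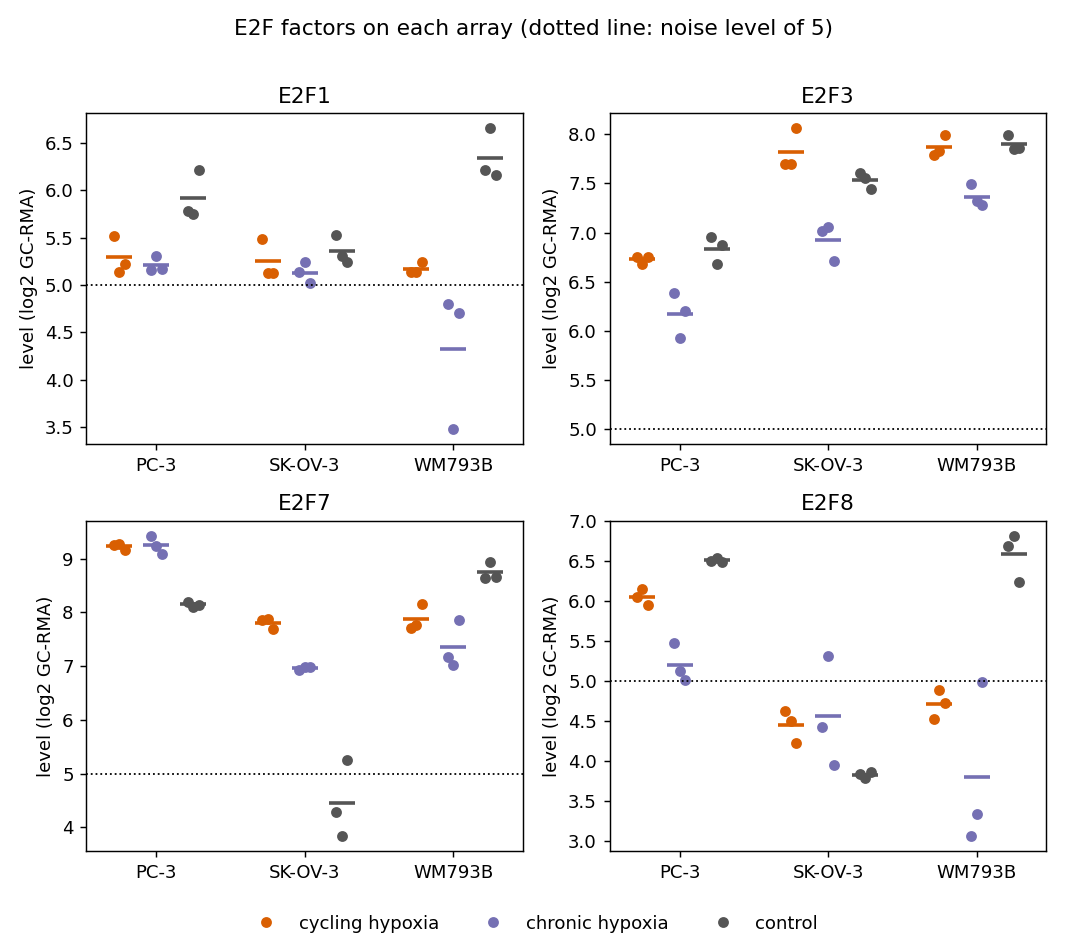
Level (y axis, log2 GC-RMA) of E2F1, E2F3, E2F7 and E2F8 on each of 27 arrays, by cell line, with cycling hypoxia (orange), chronic hypoxia (violet) and control (grey) from left to right; bars are the means of 3 arrays and the dotted line is the noise level of 5. Control SK-OV-3 cells stand alone at the bottom for E2F7, and chronic arrays lie lowest for E2F3 in each line.

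E2F7, an atypical repressor of the family, rose in 2 lines and fell in the third. SK-OV-3 cells had 7.86, 7.87 and 7.68 under cycling hypoxia, 6.93, 6.99 and 6.99 under chronic hypoxia and 4.28, 3.84 and 5.25 in control cells. All hypoxic arrays lay above all control arrays, 2 of which were within noise. The log2 difference from control was 3.35 (SE 0.32, limma adjusted p = 0.000356) under cycling and 2.52 (SE 0.32, adjusted p = 0.000715) under chronic hypoxia. With values below noise set to 5, cycling hypoxia was 6.60-fold and chronic hypoxia 3.70-fold above control. Cycling exceeded chronic hypoxia by 0.83 (SE 0.32), which was not called (adjusted p = 0.0904), although their arrays did not overlap. This difference was called in 5 of the other settings tried, such as the fit to only the 6 arrays compared (limma adjusted p = 0.00252).

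In PC-3 cells E2F7 was at 9.26, 9.28 and 9.17 under cycling, at 9.43, 9.23 and 9.09 under chronic hypoxia and at 8.20, 8.11 and 8.15 in control cells. It rose by 1.08 and 1.10 on the log2 scale (SE 0.08 each, limma adjusted p = 7.94e-05 and 2.80e-05), and the hypoxic groups overlapped one another. In WM793B cells it was at 7.71, 7.76 and 8.16 under cycling, at 7.18, 7.03 and 7.86 under chronic hypoxia and at 8.64, 8.93 and 8.66 in control cells. Here every hypoxic array lay below every control array, and E2F7 fell by 1.39 under chronic hypoxia (SE 0.23, limma adjusted p = 0.00344) and by 0.86 under cycling hypoxia (SE 0.23, adjusted p = 0.0456). The call for cycling hypoxia was lost when any 1 of the 6 arrays compared was left out, with adjusted p values of up to 0.136. A dimmer second E2F7 probe set was also called higher in PC-3 cells under both conditions (0.82 and 0.44), but in SK-OV-3 cells its differences of 0.74 and 0.08 were not called, nor were those in WM793B cells (-0.26 and -0.30). It was above noise on 4 of 27 arrays.

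E2F8, the other atypical repressor, did not follow E2F7 in PC-3 cells. There it was at 6.05, 6.15 and 5.95 under cycling, at 5.47, 5.12 and 5.01 under chronic hypoxia and at 6.49, 6.54 and 6.49 in control cells, 3 groups without overlap. It fell by 0.46 under cycling and by 1.31 under chronic hypoxia (SE 0.11 each, limma adjusted p = 0.015 and 5.59e-05). Without PC-3 cycling hypoxia replicate 3 the cycling call was lost (adjusted p = 0.0508). WM793B cells had 4.52, 4.89 and 4.72 under cycling, 3.06, 3.34 and 4.99 under chronic hypoxia and 6.69, 6.81 and 6.24 in control cells. Both hypoxic groups lay within noise there, and E2F8 was at least 2.99-fold lower than in control cells under each (limma adjusted p = 0.0385 for cycling and 0.00372 for chronic hypoxia). Chronic hypoxia replicate 3 stood above its fellow replicates, though within noise. The order of cycling and chronic hypoxia cannot be read there, since both groups lay within noise. The cycling call in WM793B cells was lost when any 1 of the 6 arrays was left out (adjusted p up to 0.115). In SK-OV-3 cells E2F8 was within noise on 8 of 9 arrays, and no difference was called.

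CCNE2, cyclin E2, had the largest fall of the 10 genes. WM793B cells were at 5.28, 5.13 and 5.73 under cycling hypoxia, at 2.80, 2.84 and 3.88 under chronic hypoxia and at 8.04, 7.72 and 7.68 in control cells. The 3 groups did not overlap, and chronic hypoxia took the level into noise. CCNE2 was at least 7.03-fold lower under chronic hypoxia than in control WM793B cells (limma adjusted p = 0.000115), and it fell by 2.44 under cycling hypoxia (SE 0.31, adjusted p = 0.00405). In PC-3 cells it was at 6.96, 6.67 and 6.71 under cycling, at 5.19, 5.30 and 5.66 under chronic hypoxia and at 7.81, 7.80 and 8.04 in control cells. The log2 differences there were -1.10 and -2.50 (SE 0.14 each, limma adjusted p = 0.000764 and 7.28e-06). Cycling exceeded chronic hypoxia by 1.40 in PC-3 cells (SE 0.14, adjusted p = 0.000488) and by at least 1.30-fold in WM793B cells, where the chronic group lay within noise (adjusted p = 0.00663, but 0.23 with values below 5 set to 5). SK-OV-3 cells did not exceed noise on any of 9 arrays, with values between 3.10 and 4.73. A second CCNE2 probe set was called in the same comparisons and directions.

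CCNE1, cyclin E1, showed the same order of groups in WM793B cells and a different one in SK-OV-3 cells. In WM793B cells it was at 5.66, 5.70 and 5.44 under cycling, at 4.92, 4.53 and 4.75 under chronic hypoxia and at 6.58, 6.70 and 6.44 in control cells. It fell by 0.97 under cycling hypoxia (SE 0.12, limma adjusted p = 0.00402) and was at least 2.97-fold lower under chronic hypoxia (adjusted p = 0.000115). SK-OV-3 cells had 6.09, 6.11 and 6.32 under cycling, 5.26, 4.95 and 4.90 under chronic hypoxia and 5.61, 5.46 and 5.88 in control cells. Here cycling and chronic arrays lay on opposite sides of control. The differences from control were 0.52 (SE 0.14, limma adjusted p = 0.0272) and -0.61 (SE 0.14, adjusted p = 0.00991), and cycling exceeded chronic hypoxia by 1.14 (adjusted p = 0.00125). The cycling call in SK-OV-3 cells was lost without any 1 of 5 of the 6 arrays, all but control replicate 3 (adjusted p up to 0.0846). In PC-3 cells CCNE1 was within noise on 8 of 9 arrays, and no difference was called.

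**Figure D3:**
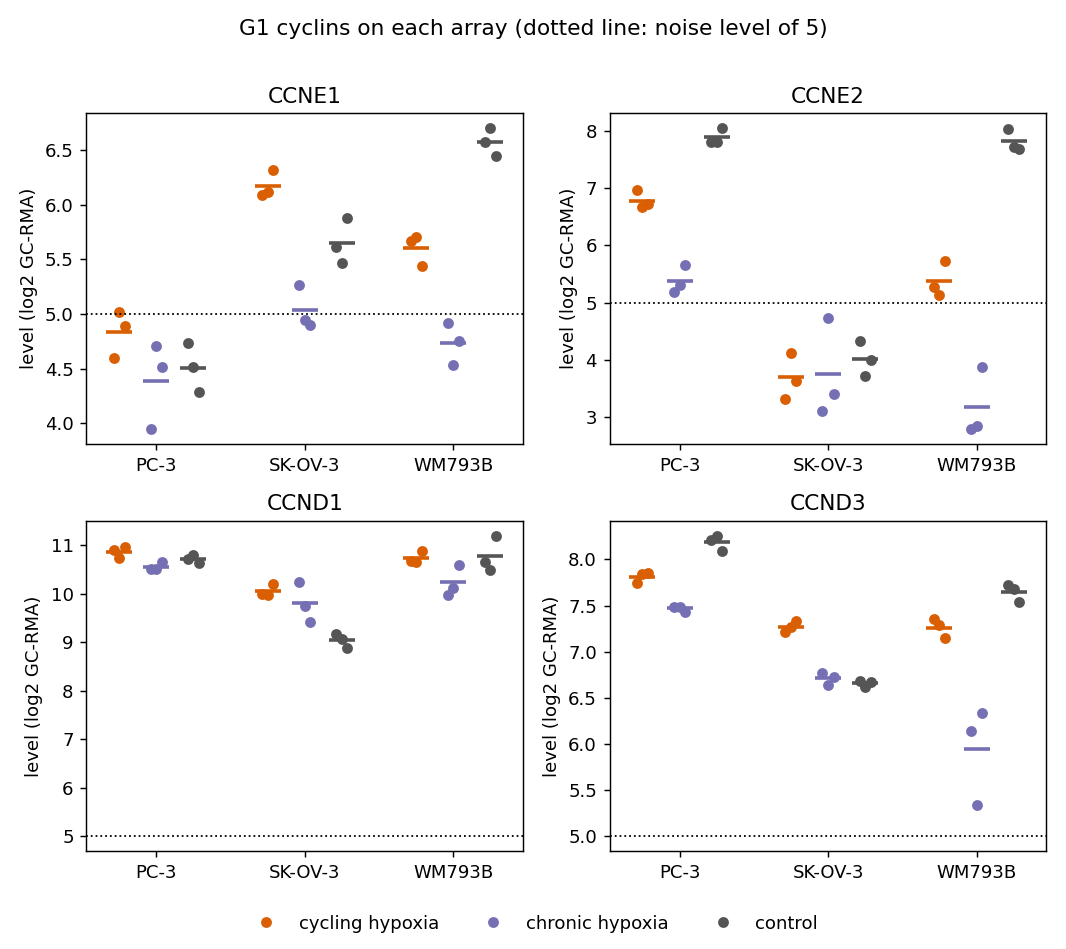
Level (y axis, log2 GC-RMA) of CCNE1, CCNE2, CCND1 and CCND3 on each of 27 arrays, by cell line, with cycling hypoxia (orange), chronic hypoxia (violet) and control (grey) from left to right; bars are the means of 3 arrays and the dotted line is the noise level of 5. CCNE2 falls in steps in PC-3 and WM793B cells, and CCND1 is lowest in control cells within SK-OV-3.

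CCND1, cyclin D1, was bright in every line and rose in SK-OV-3 cells. There it was at 9.98, 9.97 and 10.2 under cycling, at 10.2, 9.74 and 9.41 under chronic hypoxia and at 9.17, 9.06 and 8.89 in control cells. All hypoxic arrays lay above the control arrays, with log2 differences of 1.01 (SE 0.20, limma adjusted p = 0.00874) under cycling and 0.76 (SE 0.20, adjusted p = 0.0198) under chronic hypoxia. The chronic call was lost without SK-OV-3 control replicate 2 (adjusted p = 0.0515) or replicate 3 (0.0646). In PC-3 cells CCND1 was at 10.9, 10.7 and 11.0 under cycling, at 10.5, 10.5 and 10.7 under chronic hypoxia and at 10.7, 10.8 and 10.6 in control cells. Neither condition differed from control there, and cycling exceeded chronic hypoxia by 0.31 (SE 0.07, limma adjusted p = 0.015). WM793B cells had 10.7, 10.6 and 10.9 under cycling, 9.98, 10.1 and 10.6 under chronic hypoxia and 10.6, 10.5 and 11.2 in control cells. The chronic difference of -0.54 (SE 0.22) was not called (limma adjusted p = 0.0931), whereas the second CCND1 probe set fell by 0.80 (SE 0.22, adjusted p = 0.0245). In SK-OV-3 cells the second probe set rose as well, by 0.75 and 0.70.

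CCND3, cyclin D3, fell in PC-3 and WM793B cells and rose in SK-OV-3 cells, there only under cycling hypoxia. PC-3 cells had 7.74, 7.84 and 7.85 under cycling, 7.49, 7.49 and 7.44 under chronic hypoxia and 8.21, 8.26 and 8.10 in control cells. The groups stood apart, at -0.38 under cycling and -0.72 under chronic hypoxia from control (SE 0.05 each, limma adjusted p = 0.000972 and 1.95e-05). WM793B cells had 7.35, 7.29 and 7.15 under cycling, 6.14, 5.34 and 6.34 under chronic hypoxia and 7.73, 7.68 and 7.54 in control cells. CCND3 fell by 1.70 under chronic hypoxia (SE 0.24, limma adjusted p = 0.0016), and the cycling difference of -0.38 was not called (adjusted p = 0.322). Cycling exceeded chronic hypoxia by 1.32 in WM793B cells (limma adjusted p = 0.0141), a call lost without cycling hypoxia replicate 1 (0.054) or replicate 2 (0.052). SK-OV-3 cells had 7.22, 7.26 and 7.33 under cycling, 6.77, 6.64 and 6.73 under chronic hypoxia and 6.68, 6.62 and 6.68 in control cells. Only the cycling arrays stood apart: the difference from control was 0.61 (SE 0.05, limma adjusted p = 0.00022) under cycling and 0.05 (SE 0.05, adjusted p = 0.484) under chronic hypoxia. CCND2, the third D-type cyclin, was at 2.39 or below on its 4 probe sets and all 27 arrays.

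Whether the response itself differed between the lines was tested with a cell line by condition term over all 27 arrays. Against control, 6 of the 10 genes differed under cycling hypoxia (background 48.2% of probe sets) and 6 under chronic hypoxia (background 67.6%); 3 were not tested. E2F3 was the one tested gene not called, with limma adjusted p values of 0.141 under cycling and 0.782 under chronic hypoxia. The response of E2F7 was 4.22 log2 units higher in SK-OV-3 than in WM793B cells under cycling (SE 0.33, limma adjusted p = 4.49e-09) and 3.90 under chronic hypoxia (adjusted p = 4.06e-09). It was also higher in SK-OV-3 than in PC-3 cells, by 2.27 under cycling and 1.42 under chronic hypoxia (limma adjusted p = 1.71e-05 and 0.00112). In SK-OV-3 control cells 2 of 3 E2F7 values lay within noise, so these sizes are uncertain; with values below 5 set to 5, the lines still differed (limma adjusted p = 1.01e-09 for cycling and 8.75e-10 for chronic hypoxia). CCNE2 responded lower in WM793B than in PC-3 cells under cycling hypoxia, by -1.33 (limma adjusted p = 0.0383); under chronic hypoxia the WM793B level lay within noise and the size of the difference was not measured. For CCND1 the responses of SK-OV-3 cells exceeded those of PC-3 cells by 0.85 under cycling and 0.91 under chronic hypoxia (limma adjusted p = 0.0134 and 0.00542), while WM793B and PC-3 cells were not called different (-0.20 and -0.39, SE 0.26 each). The gap between cycling and chronic hypoxia differed between lines for 2 of the 10 genes, CCNE2 and CCND3 (background 40.7%). For CCNE2 the called pairs of lines all included SK-OV-3 cells, whose arrays lay within noise. WM793B and PC-3 cells were not called different in this gap (0.81, SE 0.45, limma adjusted p = 0.264). For CCND3 the gap was 0.98 wider in WM793B than in PC-3 cells (SE 0.22, limma adjusted p = 0.00451).

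In control cells, SK-OV-3 had the lowest level of 6 genes, of which E2F8 and CCNE2 were within noise there. E2F1, which was not tested, averaged 5.36 in SK-OV-3, 5.91 in PC-3 and 6.34 in WM793B cells. Its SK-OV-3 arrays lay below those of both other lines, whereas the PC-3 and WM793B arrays overlapped. With values below 5 set to 5, E2F7 was 8.39-fold lower in SK-OV-3 than in PC-3 cells (limma adjusted p = 1.81e-12 on the deposited values) and 12.7-fold lower than in WM793B cells (adjusted p = 9.46e-14). CCNE2 was at least 7.38-fold and 7.03-fold lower than in PC-3 and WM793B cells, and E2F8 at least 2.84-fold and 2.99-fold. The differences were, in the same order, -1.67 and -1.74 for CCND1 and -1.53 and -0.99 for CCND3, and all of these were called. Of all probe sets, 78.1% differed between SK-OV-3 and PC-3 cells and 80.6% between SK-OV-3 and WM793B cells. Between WM793B and PC-3 cells, where 77.7% of probe sets differed, E2F8, CCNE2 and CCND1 did not (0.07, -0.07 and 0.07; limma adjusted p = 0.871, 0.866 and 0.772). CCNE1 was highest in control WM793B cells, at least 2.97-fold above PC-3 cells, which lay within noise (limma adjusted p = 2.09e-10), and 0.92 log2 units above SK-OV-3 cells.

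Ordered over the 9 groups, E2F7 was highest in PC-3 cells under chronic hypoxia (9.25) and lowest in control SK-OV-3 cells (4.45). Of the 8 steps between neighbours, those between control WM793B and control PC-3 cells (0.59) and between chronic and control SK-OV-3 cells (2.52) were called in the fit over 27 arrays. Control SK-OV-3 cells had 2 of 3 E2F7 values within noise. CCNE2 was highest in control PC-3 cells (7.88), and 3 of its 8 steps were called; WM793B cells under chronic hypoxia and all 3 groups of SK-OV-3 lay within noise and have no order among themselves. E2F8 was highest in control WM793B cells (6.58), no step was called, and the groups at its low end, of WM793B and SK-OV-3 cells, were mostly or wholly within noise. CCND1 was highest in PC-3 cells under cycling hypoxia (10.9) and lowest in control SK-OV-3 cells (9.04), and its last step, of 0.76 between chronic and control SK-OV-3 cells, was called. CCND3 was lowest in WM793B cells under chronic hypoxia (5.94) and highest in control PC-3 cells (8.19), with 2 called steps. E2F3 was lowest in PC-3 cells under chronic hypoxia (6.17) and highest in control WM793B cells (7.90), with 2 called steps. CCNE1 was highest in control WM793B cells (6.57), with 3 called steps; PC-3 cells under chronic hypoxia and in control, and WM793B cells under chronic hypoxia, lay within noise.

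The genes most like each member were looked up over the 27 arrays after subtraction of the mean of each cell line, among 10014 genes. These Pearson correlations are descriptive, since the arrays share cell lines and conditions. E2F8 was most like RRM2, a ribonucleotide reductase subunit (r = 0.976), CCNE2 most like MCM6, a subunit of the replicative helicase (r = 0.972), and E2F1 most like the histone chaperone NASP (r = 0.911). E2F7 was most like the chemokine CCL20 (r = 0.922), E2F3 like the phosphatase subunit PPP2CA (r = 0.905), CCNE1 like ICMT (r = 0.918), CCND1 like GTSE1 (r = 0.867) and CCND3 like ENC1 (r = 0.921). For E2F2 and CCND2, which were within noise, the values were 0.805 with ANK2 and 0.72 with COX7B2. Among the members, E2F8 and CCNE2 were the closest pair (r = 0.890), followed by E2F1 and CCNE2 (0.871). E2F7 was far from E2F3 (0.02) and from CCNE2 (0.14) and closest to CCND1 (0.713).

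Genes of S phase known to be driven by E2F factors were counted beside the members, with 16 of 17 tested. PC-3 cells had 13 that fell under cycling and 16 under chronic hypoxia, and none rose (background 22.3% and 34.3% lower). In WM793B cells 5 fell under cycling and 14 under chronic hypoxia, and none rose (background 8.36% and 21.5% lower). For SK-OV-3, 3 rose and 1 fell under cycling hypoxia, a count near the background of 16.7% higher and 13.6% lower. Under chronic hypoxia 6 rose and 1 fell there (background 21.6% higher and 22.3% lower). The difference between lines was not tested for this list. The median log2 difference of the 16 was -0.71 under cycling and -1.29 under chronic hypoxia for PC-3, -1.05 and -1.99 for WM793B, and 0.15 and 0.33 for SK-OV-3. With values below 5 set to 5 they were -0.71 and -1.26, -1.05 and -1.94, and 0.12 and 0.33. The gene that fell in SK-OV-3 cells was CDC6, which loads the helicase onto origins, at -1.05 under cycling and -1.83 under chronic hypoxia. In WM793B cells under chronic hypoxia the largest falls were those of CDC6 (-3.08), the epigenetic regulator UHRF1 (-2.95), RRM2 (-2.88) and MCM6 (-2.71). The CDC6 mean there was 4.86, with arrays on both sides of the noise level, and its fall was -2.64 with values below 5 set to 5. MCM6 fell in PC-3 cells too (-0.70 under cycling and -1.16 under chronic hypoxia).

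**Figure D4:**
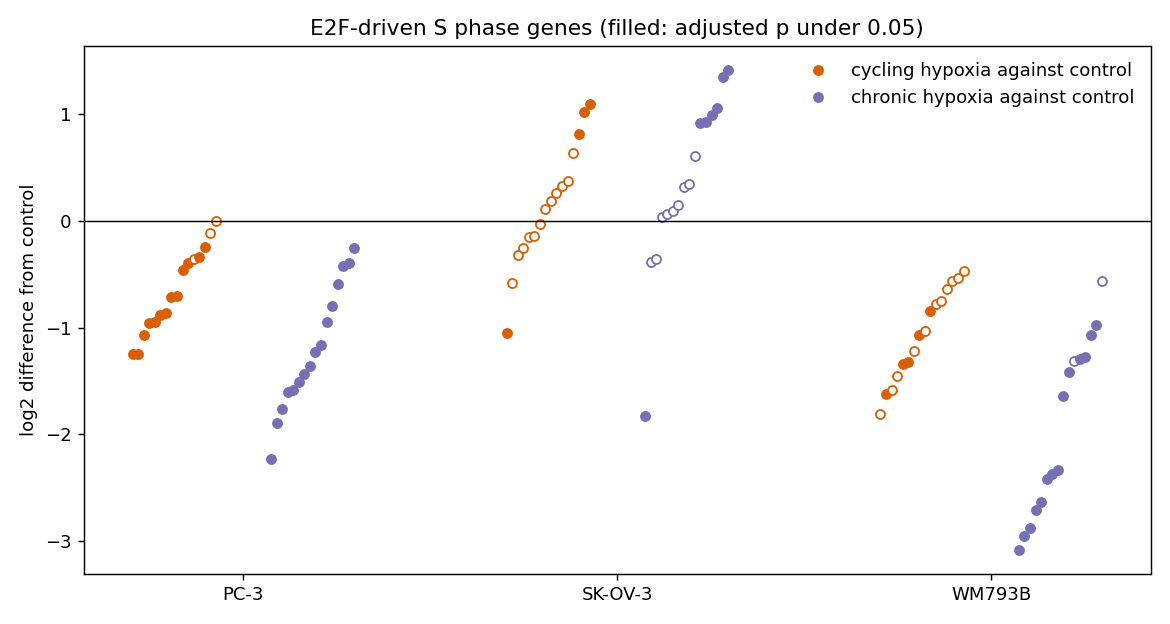
Log2 difference from control (y axis) of 16 E2F-driven S phase genes in PC-3, SK-OV-3 and WM793B cells under cycling (orange, left) and chronic hypoxia (violet, right), sorted within each set; filled points had an adjusted p under 0.05. All points of WM793B lie below 0, and those of PC-3 do too except CCNA2 under cycling hypoxia, which lies just above it. Points of SK-OV-3 lie on both sides.

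Partners and regulators of the 10 genes were counted line by line, and differences between lines were not tested for them. Among CDK inhibitors, 4 of 6 tested rose under cycling hypoxia in PC-3 cells, and 5 rose and 1 fell under chronic hypoxia (background 22.9% and 26.2% higher). CDKN1A (p21) rose there by 1.76 and 2.41 and CDKN1B (p27) by 0.79 and 1.32. In WM793B cells none was called under cycling hypoxia. Under chronic hypoxia 1 rose and 3 fell there (background 18.2% higher and 21.5% lower), among them CDKN1A (-0.94) and CDKN1C (-1.27). In SK-OV-3 cells 1 rose under cycling hypoxia (background 16.7% higher), CDKN2D (p19), whose control arrays lay within noise (mean 4.06). Under chronic hypoxia 3 rose there (background 21.6% higher). Among the G1 kinases and the phosphatase CDC25A, 4 genes, WM793B cells had 4 lower under chronic hypoxia (background 21.5% lower). Under the same condition PC-3 cells had 3 lower and 1 higher (34.3% lower and 26.2% higher). SK-OV-3 cells had 2 higher and 1 lower (21.6% higher and 22.3% lower). CDC25A, which removes inhibitory phosphates from CDK2, was called lower in PC-3 and WM793B, but its size was not measured: both hypoxic groups of PC-3 (means 4.19 under cycling and 3.28 under chronic hypoxia, control 5.38) and all 3 groups of WM793B lay within noise. CDK4 fell in PC-3 cells (-0.88 under cycling and -1.26 under chronic hypoxia). CDK6 rose in PC-3 cells (0.34 and 0.76) and in SK-OV-3 cells (0.77 and 1.52). CDK2 rose in SK-OV-3 cells (0.80 and 1.08) and fell in WM793B cells under chronic hypoxia (-1.08).

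RB1, the retinoblastoma gene, was called in no line, with differences between -0.19 and 0.20. Its relative RBL1 (p107) was called lower in PC-3 cells under both conditions, where the hypoxic groups lay within noise and the control mean of 5.16 just above it. In WM793B cells under chronic hypoxia RBL1 was called lower as well, with arrays within noise against a control mean of 6.24. TFDP1, the main DNA-binding partner of the activators, fell in PC-3 (-0.64 and -1.03) and in WM793B (-0.84 and -1.39). Its differences in SK-OV-3 cells, 0.25 and -0.07, were not called. TFDP2, another DP factor, was called lower under both conditions for PC-3 and SK-OV-3, but higher for WM793B under chronic hypoxia. With values below 5 set to 5, it differed by -0.61 and -1.49 (PC-3), -0.40 and -0.55 (SK-OV-3) and 0.25 and 0.74 (WM793B). Of 3 other E2F and DP factors tested, 1 rose and 1 fell in WM793B cells under chronic hypoxia (background 18.2% higher and 21.5% lower). Under this condition 3 fell for PC-3 (34.3%) and 2 for SK-OV-3 (22.3%). SKP2, a ubiquitin ligase subunit that marks E2F1 and p27 for degradation, fell in PC-3 (-0.73 under cycling and -1.43 under chronic hypoxia) and in WM793B (-0.45 and -1.04). In SK-OV-3 cells SKP2 fell under cycling hypoxia (-0.33) and rose under chronic hypoxia (1.05). CCNF, cyclin F, was called higher in SK-OV-3 cells, with means of 5.69 under cycling and 5.42 under chronic hypoxia against control arrays within noise (mean 4.32), and was not called elsewhere. LIN37, a subunit of the DREAM complex, which represses cell cycle genes in resting cells, rose in PC-3 (0.72 and 1.10) and WM793B cells (1.09 and 1.42). Of the genes looked up beside LIN37, MYBL2 fell under chronic hypoxia in the same lines (-1.04 and -1.86).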

How the data were processed

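RNA of 27 cultures was hybridised to Human Genome U133 Plus 2.0 arrays, 3 per group. The authors made the deposited log2 values with GC-RMA (the Bioconductor gcrma package), which corrects background by probe sequence, normalizes between arrays and summarises probe sets. Differences between values near noise are therefore uncertain in size. The number of arrays limits the precision.

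Probe sets were named through the platform annotation: 41097 of 54675 had 1 gene symbol, 1801 several and 11777 none. Following the study's methods, probe sets were kept if they lay at least 1.5-fold from their median in 20% of arrays (19800). limma 3.58.1 in R 4.3.3 fitted the 9 arrays of each line, in place of the random variance t-test of the methods, with Benjamini-Hochberg adjustment and a threshold of 0.05. Differences between lines came from 1 fit of 9 group means. A level of 5 was set here as noise, with the data known. Where all arrays of a group were at or below it, "at least" folds set that group to 5. The members, gene lists and tests were chosen with earlier results of these data known. All 10 members are named; of other lists, at most the 4 genes with the largest difference, and the most correlated gene per member. On simulated data with 200 changed probe sets of 19800 (2-fold), chronic hypoxia against control recovered 85% (PC-3), 71% (SK-OV-3) and 61.5% (WM793B). Other filters, normalizations, probe set rules and fits were tried, and each array was left out in turn.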

Additional observations from a re-analysis of the deposited data

Results flagged for a closer look

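The response of 6 genes to hypoxia differed between the cell lines by limma's test of the cell line by condition term over 27 arrays. In this test 48.2% of all probe sets differed under cycling and 67.6% under chronic hypoxia against control. Under cycling hypoxia against control the adjusted p values were 9.15e-09 for E2F7, 5.65e-05 for CCNE1, 0.000672 for CCND3, 0.000768 for E2F8, 0.00197 for CCNE2 and 0.00452 for CCND1. Under chronic hypoxia against control they were 7.36e-09 for E2F7, 1.52e-07 for CCNE2, 1.76e-06 for CCND3, 6.46e-06 for E2F8, 8.27e-06 for CCNE1 and 0.000497 for CCND1. The gap between cycling and chronic hypoxia differed between the lines for CCNE2 (adjusted p = 0.0014) and CCND3 (adjusted p = 0.00243), where 40.7% of all probe sets did. For CCNE2 only the pairs with SK-OV-3 cells were called, and WM793B and PC-3 cells were not called different (limma adjusted p = 0.264). In SK-OV-3 cells all CCNE2 values and 8 of 9 E2F8 values lay within noise, so that a fall there cannot be read at the noise level set here. With values below 5 set to 5, the same 14 comparisons were called. That floor sets the CCNE2 responses of SK-OV-3 cells to 0, and the E2F8 responses there to 0 under cycling and 0.10 under chronic hypoxia. The CCNE1 responses of PC-3 cells become 0.007 and 0. For these genes the repeated calls therefore add no support. With the floor, the gap between cycling and chronic hypoxia also differed for E2F7, E2F8 and CCNE1 (limma adjusted p = 0.0153, 0.000209 and 1.06e-05). This floor sets the E2F8 gap to 0 in WM793B cells and the CCNE1 gap to 0.007 in PC-3 cells, where levels lay mostly or wholly within noise. For E2F8 and CCNE1 these calls therefore show no measured difference between the lines.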

How the results depend on the processing

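The variation filter and the noise level limit these results: 7 of the 10 genes were tested, and levels at or below 5 have no reliable order. Of the counts of genes called, 4 moved by over 1.5 times outside the left-out arrays. With all 27 arrays in 1 fit, PC-3 cells had 2 genes called under cycling hypoxia against control, where the fit to the line alone called 4, and 2 between cycling and chronic hypoxia, where it called 5. With no variation filter, 2 genes were called in WM793B cells under cycling hypoxia against control, where the filtered fit called 4. With values below noise set to 5, an alternative chosen after seeing the data, the gap between cycling and chronic hypoxia differed between lines for 5 genes, where the main analysis called 2. E2F8 and CCNE1 are among these 5, and for them the floor replaced a gap that could not be measured in 1 line.

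When each array was left out in turn, the counts of genes called were, for cycling hypoxia against control, 3 to 4 (PC-3), 3 to 4 (SK-OV-3) and 2 (WM793B). They were 5, 3 to 5 and 6 to 7 for chronic hypoxia against control, and 5, 3 to 4 and 3 to 6 for cycling against chronic hypoxia. The count of genes whose response differed between lines was 6 for both hypoxic conditions against control and 2 to 4 for cycling against chronic hypoxia, and that of genes differing between control lines was 7. Of the comparisons of single genes under the other settings, 610 stayed called or stayed not called, 21 lost a call and 17 gained one. None that was called in either setting changed direction. Direction was not followed where neither setting gave a call.

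Replicate numbers were not used as pairs in the main fits. The deviations of same-numbered arrays correlated between -0.05 and 0.15 (PC-3), -0.09 and 0.16 (SK-OV-3) and -0.02 and 0.29 (WM793B). For WM793B their mean was 0.11, against -0.05 for differently numbered arrays, so a pairing there is not settled. The same means were 0.008 and -0.004 for PC-3 and 0.002 and -0.001 for SK-OV-3. With the replicate block, 3 single-gene calls were lost and 2 gained, and no count moved by over 1.5 times. E2F8 in WM793B cells under cycling hypoxia was among those lost (difference -1.87, adjusted p = 0.0643).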
